A study of Mus musculus with 14 samples.

Results

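The 36 genes described here encode enzymes and transporters that break down fatty acids in mitochondria and peroxisomes, together with enzymes of ketone body use. They were taken by symbol from a table of 54955 gene names or unnamed gene IDs, and all 36 were found, each as a single row. The study sequenced RNA of adipose tissue from 14 C57BL/6 mice, 1 mouse a library per the labels. All were 21 weeks old after birth; 7 were labelled KO-Dectin1 (KO, replicates 1 to 7) and 7 wild type (WT, replicates 3 to 9). Dectin-1 is the beta-glucan receptor of myeloid cells and is encoded by Clec7a. The comparison asks how RNA levels in fat differ when it is lost. The labels give no fat depot, sex, diet, treatment, type of deletion or origin of the WT mice, so whether the groups were littermates is not known.

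Long-chain fatty acids enter mitochondria as carnitine esters and are shortened there in cycles of dehydrogenation, hydration, a further dehydrogenation and thiolysis. Electrons from the first step reach the respiratory chain through the electron transfer flavoprotein. Peroxisomes shorten very long-chain, branched and dicarboxylic acids with their own enzymes and pass the products on. In white fat, adipocytes mainly store and release fatty acids, and many genes of both pathways are known targets of nuclear receptors of the PPAR family.

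Values are TPM, a share of all transcripts corrected for gene length, which lets levels of different genes be set side by side. The number of reads behind a value is unknown, so the spread between libraries is the only error given. Differences, always KO minus WT, are of log2(TPM + 1) values and have their standard error (SE) from limma, fitted over the 14719 genes that reached 1 TPM in 7 libraries or more. That scale understates differences of low genes. A gene was called at a Benjamini-Hochberg adjusted p under 0.05 over all genes tested.

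Several facts about the libraries bear on the results. Clec7a itself had 4.02, 6.33 and 10.5 TPM (lowest, median, highest) in KO libraries and 4.1, 12.5 and 18.9 TPM in WT libraries, a log2 difference of -0.48 ± 0.33 (SE; limma adjusted p = 0.59). All 7 KO libraries lay below the WT median of Clec7a and 4 WT libraries above the highest KO library, but the ranges overlapped. Of 12 macrophage markers, 10 also had lower values in KO and 2 higher, where 45.4% of all genes tested were lower. Their median log2 difference was -0.32, and 0 were called. Whether Clec7a differed beyond these markers was not tested. Because the targeted gene did not separate the groups, KO stands throughout for libraries labelled KO. The tissue label was checked against adipocyte markers, and adiponectin (Adipoq) was at 683 TPM or more in all 14 libraries. The brown fat gene Ucp1 was low, at 0 to 5.16 TPM in KO libraries (median 0.81) and 0 to 0.79 TPM in WT libraries. Its highest value was in KO replicate 4. KO replicate 7 and WT replicates 4 and 7 held few B-cell transcripts (Cd79a at 0.62 to 1.52 TPM, against 177 to 720 TPM in the other 11). Muscle markers, liver markers (in WT replicate 8 and KO replicate 6) and the balance of short and long genes (in WT replicate 6) also differed between libraries.

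All 36 genes passed the filter on low values, 0 of 36 were called, and 0.0204% of all genes tested were called (limma, adjusted p; the smallest over the 36 was 0.23). Values were lower in KO for 34 of the 36 genes, where 45.4% of all genes tested were lower; 31 of the 36 were lower after quantile normalization, which turned Acadm, Hadhb and Acat1, and 32 after rescaling without mitochondrially encoded genes, which turned Acadm and Acot2. The median log2 difference was -0.31 over the 36 genes and 0.04 over all genes tested. At an unadjusted p under 0.05 there were 8 of 36 genes (22.2%), all lower in KO, against 6.74% of all genes lower, 4.67% higher and 11.4% in either direction. The KO and WT ranges overlapped for all 36 genes, and 0.211% of all genes had every KO library below every WT library. Genes of shared pathways vary together across libraries, so these 36 differences are not independent of each other. The 36 genes were also chosen with earlier results of these data known, so the shares set beside those of all genes are description only. In whole tissue, fewer cells of a type and less RNA per cell cannot be told apart.

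By level, the genes spanned more than 2 orders of magnitude in TPM. Averaged over the 14 libraries, 14 genes were at 100 TPM or more, 19 between 10 and 100 TPM and 3 below 10 TPM. Etfb, the beta subunit of the electron transfer flavoprotein, was highest at a mean of 719 TPM. Hadh (259.6 TPM), Echs1 (259.3 TPM) and Etfa (257.7 TPM) followed, and their means differed by less than their spread between libraries. Hadhb followed at 219 TPM. Cpt1b, the muscle form of carnitine palmitoyltransferase 1, was lowest at 3.54 TPM, and the liver form Cpt1a stood at 15.7 TPM. The other genes below 10 TPM were Bdh1 (7.31 TPM) and Acad10 (8.65 TPM). In the annotation columns of the deposited table, 18 genes carry the KEGG term for fatty acid degradation and 11 that for the peroxisome. A mitochondrial GO term is given for 32 genes, a peroxisomal one for 12, and both for 9.

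**Figure D1:**
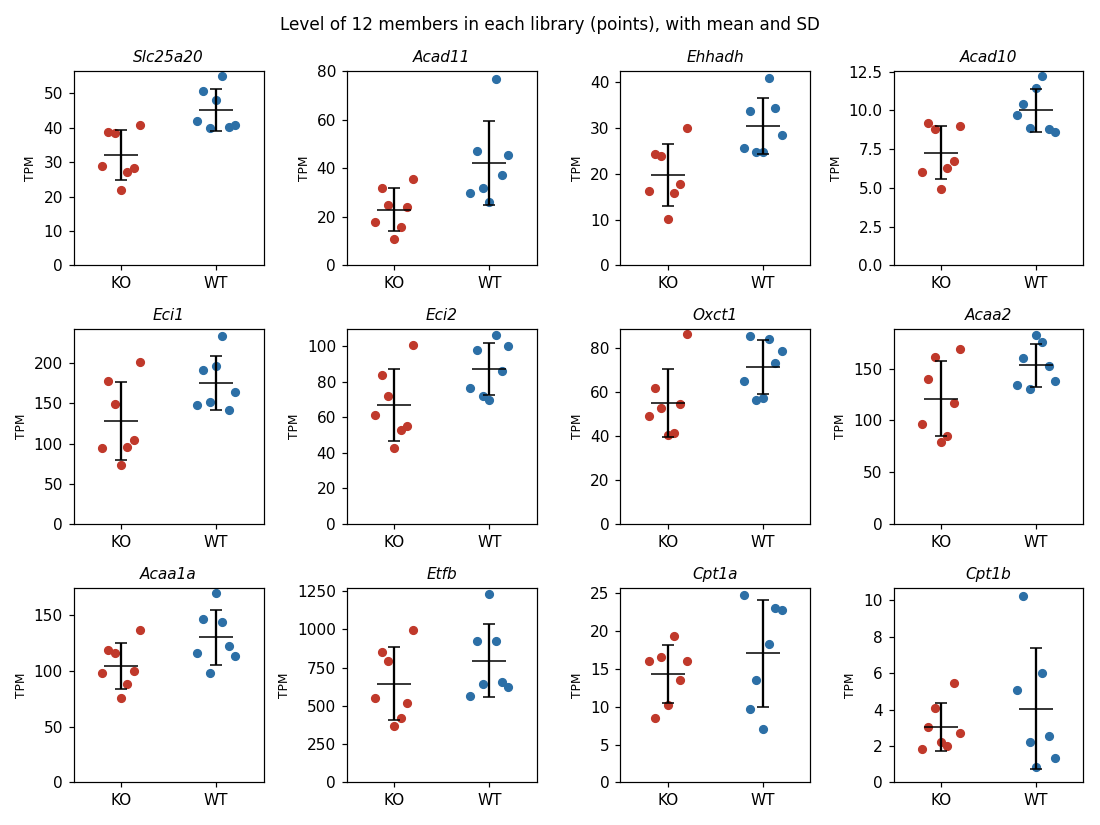
TPM of the 12 genes described in full, a panel each on a linear axis from 0, KO libraries left of WT libraries; points are libraries, and the black bars give the mean and SD over 7 libraries. The KO and WT points overlap in range in all 12 panels, and for Slc25a20 and Ehhadh 6 of 7 KO libraries lie below the lowest WT library.

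The sequences around the start sites are shown for 4 genes: Slc25a20, with the smallest p, Hadhb, whose start region is shared with Hadha, and Acad10 and Etfdh, which share a rare motif. Hadhb, Acad10 and Etfdh were picked for these features of sequence. The sequences are RefSeq windows on GRCm38.p6, from 250 bases before to 50 bases after the annotated start, 5′ to 3′ on the gene's strand. RefSeq windows were matched by symbol for 29 of the 36 genes, 31 windows in all; Abcd2, Acaa2, Acat1, Cpt1b, Crat, Decr1 and Hsd17b4 are named only. Capitals mark GC boxes, GGGCGG or CCGCCC on the other strand, in Slc25a20 (chr9:108661886-108662185, plus strand) and Hadhb (chr5:30155003-30155302, plus strand). In Acad10 (chr5:121660461-121660760, minus strand) and Etfdh (chr3:79628718-79629017, minus strand) they mark the 10 letters of the NRF1 motif.
Slc25a20: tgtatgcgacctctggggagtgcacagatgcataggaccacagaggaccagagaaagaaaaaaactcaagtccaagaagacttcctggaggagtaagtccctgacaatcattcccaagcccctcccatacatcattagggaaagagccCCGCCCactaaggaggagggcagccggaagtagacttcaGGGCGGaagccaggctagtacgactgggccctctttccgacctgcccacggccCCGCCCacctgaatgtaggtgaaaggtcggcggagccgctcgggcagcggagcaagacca
Hadhb: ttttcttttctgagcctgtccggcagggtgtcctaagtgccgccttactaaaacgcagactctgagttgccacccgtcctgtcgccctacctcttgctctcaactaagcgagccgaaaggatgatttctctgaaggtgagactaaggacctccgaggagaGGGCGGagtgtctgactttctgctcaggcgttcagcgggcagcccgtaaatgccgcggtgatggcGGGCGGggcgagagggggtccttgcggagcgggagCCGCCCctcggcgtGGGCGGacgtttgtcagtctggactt
Acad10: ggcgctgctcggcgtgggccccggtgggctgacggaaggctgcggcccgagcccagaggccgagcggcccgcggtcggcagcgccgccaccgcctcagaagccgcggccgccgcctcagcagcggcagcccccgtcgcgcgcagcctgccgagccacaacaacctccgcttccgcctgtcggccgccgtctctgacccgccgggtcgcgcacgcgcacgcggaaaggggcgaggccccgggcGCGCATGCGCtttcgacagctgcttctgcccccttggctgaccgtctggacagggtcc
Etfdh: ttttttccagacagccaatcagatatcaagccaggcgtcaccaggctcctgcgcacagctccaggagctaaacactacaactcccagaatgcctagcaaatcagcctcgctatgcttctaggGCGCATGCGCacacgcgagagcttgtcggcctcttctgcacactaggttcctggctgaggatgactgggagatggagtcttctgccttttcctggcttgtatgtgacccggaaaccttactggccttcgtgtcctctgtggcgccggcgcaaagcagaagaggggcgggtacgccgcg

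Hadha and Hadhb, which encode the 2 subunits of the mitochondrial trifunctional protein, lie head to head. Their start sites are 273 bases apart, and their windows (Hadha at chr5:30154931-30155230, minus strand) share 228 bases. The GC box, read on both strands, was in 21 of the 31 windows (67.7%) and in 35.7% of the 32851 windows of all genes. The NRF1 letters were in 2 of 31 (6.45%) and in 0.971% of all. The nuclear receptor site AGGTCA was in 5 of 31 (16.1%; Acadm, Acadvl, Cpt1a, Echs1 and Phyh) and in 16.3% of all. The direct repeat bound by PPAR and RXR, searched as 2 copies of AGGTCA with 1 base between, was in 0 of 31 windows and in 0.0396% of all. The CCAAT letters were in 10 of 31 (32.3%) and in 37.4% of all, and the E-box CACGTG was in 0 of 31 and in 7.15% of all. These motifs were picked with the expression values known, a match is letters only, and AGGTCA lies within the direct repeat. The windows of all genes were not limited to genes that passed the filter on low values, as all 36 genes did. Hadha and Hadhb both count for the GC box although their windows share 228 bases. Whether the shares differ from those of other expressed genes was not tested.

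The 6 genes of the carnitine shuttle all had lower values in KO, with a median log2 difference of -0.29, and 0 of 6 were called. Slc25a20 encodes the carnitine-acylcarnitine translocase of the inner mitochondrial membrane. It had 21.99, 28.9 and 40.7 TPM (lowest, median, highest) in KO libraries and 39.9, 41.9 and 54.9 TPM in WT libraries. Of the KO libraries, 6 of 7 lay below the lowest WT library, and all 7 lay below the WT median. The log2 difference was -0.50 ± 0.14 (SE; limma adjusted p = 0.23), the smallest p of the 36 genes.

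Cpt1a and Cpt1b encode the enzymes that load fatty acids onto carnitine at the outer mitochondrial membrane. Cpt1a had 8.48, 16.1 and 19.3 TPM in KO libraries and 7.04, 18.3 and 24.9 TPM in WT libraries, with a log2 difference of -0.16 ± 0.27 (SE). Cpt1b had 1.81, 2.69 and 5.45 TPM in KO libraries and 0.83, 2.56 and 10.2 TPM in WT libraries, with a log2 difference of -0.11 ± 0.36 (SE). In both genes the KO range lay inside the WT range. The 4 libraries with the highest Cpt1b (WT replicates 4, 7 and 3 and KO replicate 6) were the 4 with the highest score of skeletal muscle markers, whose summed level there was 4922 to 28066 TPM. The other 10 libraries had 27.1 to 2573 TPM of these markers. With the muscle score as a covariate the log2 difference of Cpt1b was 0.15, and without WT replicate 4 it was 0.12, both opposite in sign to the value above. Cpt2, which reforms the acyl-CoA inside, averaged 60.0 ± 26.0 TPM in KO and 75.1 ± 16.6 TPM in WT (SD, n = 7 each). Crat, which moves short acyl groups to carnitine, averaged 79.8 ± 37.1 TPM in KO and 107.8 ± 32.7 TPM in WT (SD, n = 7 each). Slc22a5, the carnitine importer of the cell membrane, stood at 9.76 ± 1.98 TPM in KO and 10.6 ± 2.02 TPM in WT (SD, n = 7 each).

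The acyl-CoA dehydrogenases, which open each cycle, also had lower values in KO in 6 of 6 genes, with a median of -0.39 and 0 called. Acad11 and Acad10, members of the family with an added kinase-like domain, had the smallest p in this role. Acad11 had 10.9, 23.9 and 35.6 TPM in KO libraries and 26.0, 37.3 and 76.9 TPM in WT libraries. All 7 KO libraries lay below the WT median and 5 below the lowest WT library. Its log2 difference of -0.85 ± 0.27 (SE; limma adjusted p = 0.27) was the largest of the 36. Acad10 had 4.91, 6.71 and 9.20 TPM in KO libraries and 8.60, 9.72 and 12.2 TPM in WT libraries, and again all 7 KO libraries lay below the WT median. Its log2 difference was -0.43 ± 0.15 (SE; limma adjusted p = 0.32).

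The other 4 are the dehydrogenases of the chain-length series. Acadm, the medium-chain enzyme, averaged 213 ± 86.6 TPM in KO and 208 ± 46.8 TPM in WT (SD, n = 7 each), a log2 difference of -0.04 with a 95% interval of -0.55 to 0.47. Acadvl, the very long-chain enzyme, averaged 146 ± 48.4 TPM in KO and 158 ± 23.8 TPM in WT (SD, n = 7 each). Acadl, the long-chain enzyme, averaged 148 ± 51.9 TPM in KO and 182 ± 36.4 TPM in WT, and Acads, the short-chain enzyme, 84.8 ± 29.9 TPM in KO and 112 ± 24.4 TPM in WT (SD, n = 7 each). The log2 difference of Acads, -0.44 ± 0.22 (SE), was close to that of Acad10. The SD was larger in KO than in WT for these 4 enzymes.

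The mitochondrial hydratases, dehydrogenases and thiolase carry the remaining steps of the cycle, and 5 of 5 had lower values in KO (median -0.38, 0 called). Acaa2, the thiolase of the matrix, had 79.4, 117 and 169 TPM in KO libraries and 130, 152 and 183 TPM in WT libraries. Of the KO libraries, 4 of 7 lay below the lowest WT library, and the log2 difference was -0.38 ± 0.18 (SE; limma adjusted p = 0.44). Hadha and Hadhb, which share their start region, differed little, at -0.15 ± 0.17 and -0.05 ± 0.21 (SE). Echs1, the short-chain enoyl-CoA hydratase, averaged 223 ± 92.5 TPM in KO and 296 ± 59.7 TPM in WT (SD, n = 7 each). Hadh, the short-chain hydroxyacyl-CoA dehydrogenase, averaged 233 ± 99.5 TPM in KO and 286 ± 59.4 TPM in WT (SD, n = 7 each).

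The auxiliary enzymes, which prepare unsaturated chains for the cycle, had the lowest median of the roles, -0.45, with 4 of 4 genes including the thioesterase Acot2 lower in value and 0 called. Eci1, a mitochondrial enoyl-CoA isomerase, had 73.4, 105 and 202 TPM in KO libraries and 142, 164 and 234 TPM in WT libraries, a log2 difference of -0.52 ± 0.22 (SE; limma adjusted p = 0.41). Eci2, an isomerase found in both organelles, had 42.6, 61.5 and 101 TPM in KO libraries and 69.7, 86.0 and 106 TPM in WT libraries, a log2 difference of -0.41 ± 0.18 (SE; limma adjusted p = 0.41). In each, 4 of 7 KO libraries lay below the lowest WT library and the highest KO library lay inside the WT range. Decr1, the mitochondrial dienoyl-CoA reductase, averaged 65.2 ± 29.0 TPM in KO and 87.0 ± 20.2 TPM in WT (SD, n = 7 each). Acot2, which releases free fatty acid from acyl-CoA in mitochondria, averaged 11.9 ± 2.69 TPM in KO and 12.6 ± 3.999 TPM in WT (SD, n = 7 each).

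In the electron transfer flavoprotein chain 3 of 3 genes had lower values in KO (median -0.31, 0 called). Etfb had 369, 553 and 995 TPM in KO libraries and 567, 658 and 1228 TPM in WT libraries, a log2 difference of -0.34 ± 0.25 (SE; limma adjusted p = 0.61). Of the KO libraries, 4 of 7 lay below the lowest WT library, and the highest value of all was in WT replicate 6. Etfa, the alpha subunit, averaged 235 ± 95.5 TPM in KO and 281 ± 67.7 TPM in WT, and Etfdh, which hands the electrons to ubiquinone, 39.0 ± 14.04 TPM in KO and 42.3 ± 9.51 TPM in WT (SD, n = 7 each). The ratio of Etfb to Etfa was 2.37 to 3.49 in KO libraries and 2.002 to 2.87 in 6 WT libraries, but 5.83 in WT replicate 6.

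Of the ketone body enzymes, 2 of 3 had lower values in KO (median -0.11, 0 called). Oxct1, which activates acetoacetate for use as fuel, had 40.5, 52.6 and 86.2 TPM in KO libraries and 56.2, 73.1 and 85.6 TPM in WT libraries. Of the KO libraries, 5 of 7 lay below the lowest WT library, while KO replicate 7 lay above all others, and the log2 difference was -0.39 ± 0.17 (SE; limma adjusted p = 0.41). Acat1, the mitochondrial acetoacetyl-CoA thiolase, averaged 184 ± 70.8 TPM in KO and 189 ± 32.0 TPM in WT (SD, n = 7 each). Bdh1, which interconverts the ketone bodies, had 0.63, 6.36 and 15.5 TPM in KO libraries and 0.43, 5.95 and 17.4 TPM in WT libraries, a log2 difference of 0.38 ± 0.66 (SE). Its 3 lowest libraries, at 0.43 to 0.63 TPM, were the 3 with few B-cell transcripts. Without these 3 the log2 difference was -0.0049, and with the B-cell score as a covariate it was -0.14.

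Of the 9 peroxisomal enzymes and transporters 8 had lower values in KO, with a median of -0.25 and 0 called. Ehhadh, the peroxisomal bifunctional enzyme of the dicarboxylic acid route, had 10.1, 17.8 and 30.1 TPM in KO libraries and 24.7, 28.4 and 40.9 TPM in WT libraries. Of the KO libraries, 6 of 7 lay below the lowest WT library, and KO replicate 7 was the exception. The log2 difference was -0.64 ± 0.21 (SE; limma adjusted p = 0.28). Acaa1a, a peroxisomal thiolase, had 75.6, 99.6 and 137 TPM in KO libraries and 97.9, 122 and 170 TPM in WT libraries, with a log2 difference of -0.31 ± 0.15 (SE; limma adjusted p = 0.45). The deposited table lists the near-identical Acaa1b in a row of its own, and reads shared by the pair could have been split between them.

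Hsd17b4, the bifunctional enzyme for branched and very long chains, differed less than Ehhadh, at 76.1 ± 29.2 TPM in KO and 87.6 ± 22.8 TPM in WT (SD, n = 7 each). Whether the difference between these genes was larger than chance was not tested. Abcd2, a transporter of very long-chain acyl-CoA, averaged 61.3 ± 41.3 TPM in KO and 90.5 ± 32.8 TPM in WT, and Abcd3, a transporter of the same family, 20.7 ± 7.18 TPM in KO and 24.9 ± 6.08 TPM in WT (SD, n = 7 each). Phyh, which starts alpha-oxidation of phytanic acid, had a log2 difference of -0.21 ± 0.22, Decr2, the peroxisomal dienoyl-CoA reductase, one of -0.20 ± 0.23 and Pex11a, a factor of peroxisome division, one of -0.18 ± 0.30 (SE). Acox3, an oxidase of branched chains, was the single gene of this role with a higher value in KO. It had 14.9, 23.1 and 28.6 TPM in KO libraries and 11.7, 19.1 and 22.8 TPM in WT libraries, a log2 difference of 0.30 ± 0.19 (SE; limma adjusted p = 0.55).

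**Figure D2:**
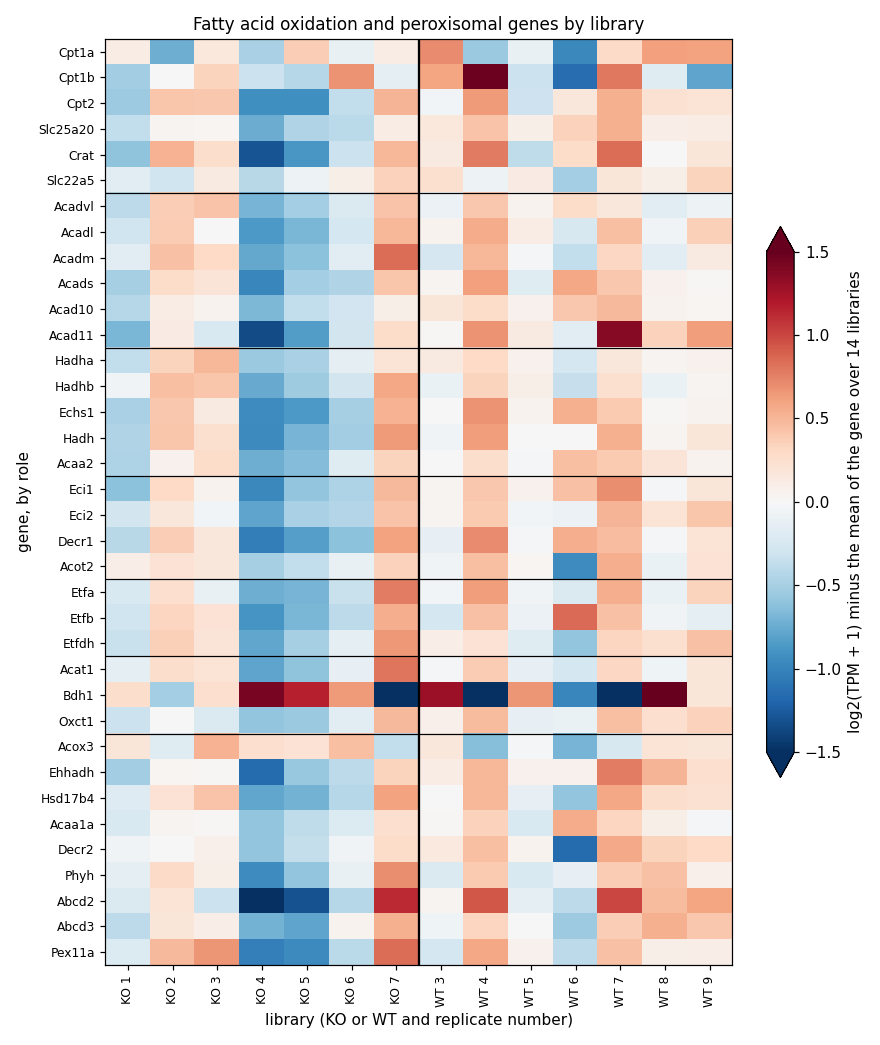
Level of each of the 36 genes, grouped by role, in each library, as log2(TPM + 1) minus the gene's mean over the 14 libraries (colour scale limited to -1.5 to 1.5), with the 7 KO libraries left of the 7 WT libraries. KO replicate 4 is the lowest library in 28 of 36 genes, and KO replicate 7, WT replicate 4 and WT replicate 7 together hold the highest value in 27.

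KO replicate 4 was the lowest of the 14 libraries in 28 of the 36 genes. KO replicate 7 was the highest in 12 genes, WT replicate 7 in 9 and WT replicate 4 in 6, and these are the 3 libraries with few B-cell transcripts. The summed TPM of the 36 genes was 2147 to 5683 in KO libraries (median 3094) and 3691 to 5388 in WT libraries (median 4193). Without these 3 libraries the median log2 difference was -0.32. Without KO replicate 4 it was -0.22, and without KO replicate 7 it was -0.43.

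Adipocyte markers moved with the 36 genes. A marker list was scored in each library by averaging log2(TPM + 1) over its tested genes. Of 13 tested white adipocyte markers 12 had lower values in KO, with a median log2 difference of -0.55, and the summed level of the list was 17086 to 78510 TPM in KO libraries and 41404 to 82100 TPM in WT libraries. Adipoq had 683, 1359 and 3000 TPM (lowest, median, highest) in KO libraries and 2001, 2677 and 4068 TPM in WT libraries. The adipocyte score differed by -0.50, KO minus WT (2-sided exact permutation p = 0.17; 0.52 adjusted over 9 marker lists). KO replicates 4 and 5 had the lowest scores on both the adipocyte list (8.03 and 8.67) and the 36 genes (5.17 and 5.37). The top adipocyte scores were those of the libraries poor in B-cell transcripts, KO replicate 7 (10.4), WT replicate 4 (10.3) and WT replicate 7 (10.3).

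**Figure D3:**
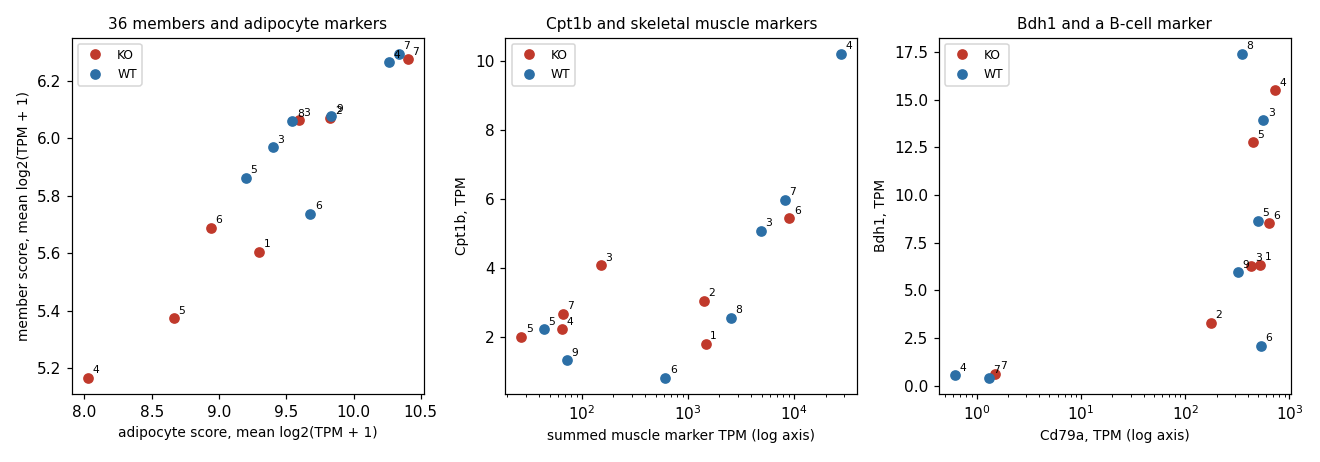
Libraries as points labelled by replicate, KO in red and WT in blue: left, mean log2(TPM + 1) of the 36 genes against that of the white adipocyte markers; middle, Cpt1b TPM against the summed TPM of muscle markers (log axis); right, Bdh1 TPM against Cd79a TPM (log axis). KO replicates 4 and 5 lie lowest on both axes of the left panel, and KO replicate 7, WT replicate 4 and WT replicate 7 lie at its top and at the low end of the right panel.

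With the adipocyte score as a covariate in the same limma fit, 0 of the 36 genes were called (0.129% of all genes tested), and 23 of 36 had lower values in KO, where 51.9% of all genes did. The median log2 difference over the 36 genes was then -0.04, 29 of the 36 estimates moved closer to 0, and 13 changed sign. At an unadjusted p under 0.05 there were 5 of 36 genes, where 9.75% of all genes passed. Of these, 4 were lower in value: Slc25a20 at -0.31 ± 0.08, Ehhadh at -0.35 ± 0.11, Acad11 at -0.48 ± 0.16 and Acad10 at -0.26 ± 0.12 (SE). Acadm was higher, at 0.30 ± 0.11 (SE; limma adjusted p = 0.35). The score is itself a measured value of these libraries, so this fit sets the genes against adipocyte RNA and does not count cells. With the B-cell score as the covariate the median was -0.21.

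**Figure D4:**
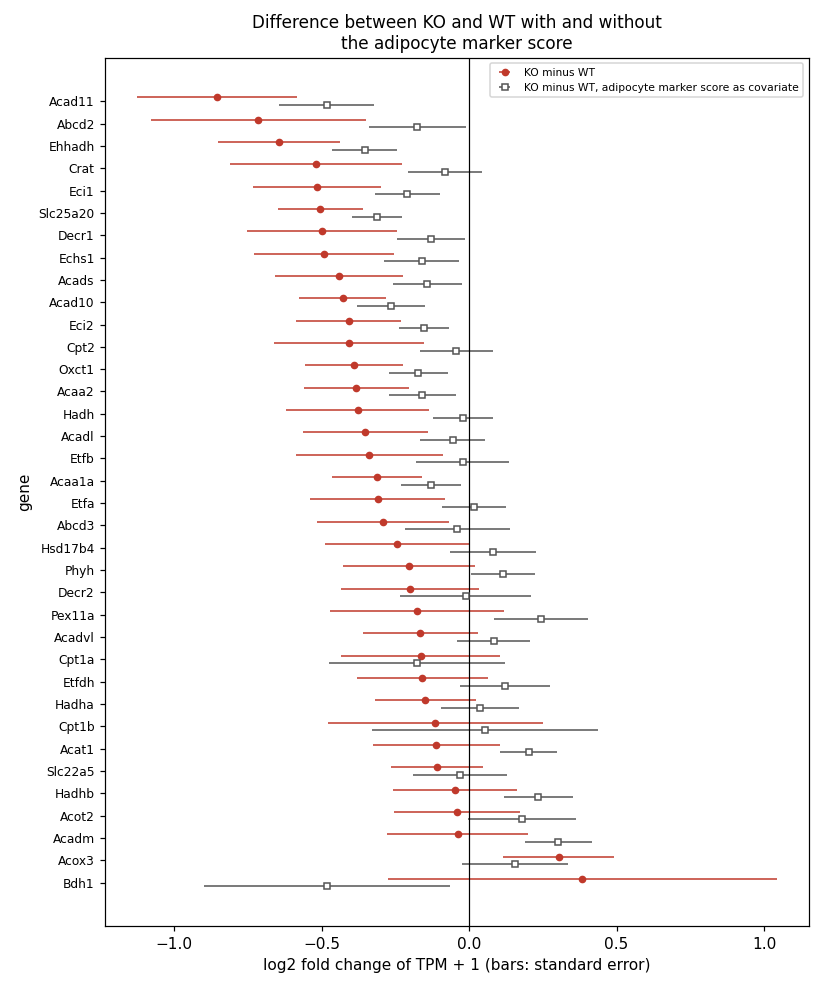
Difference in log2(TPM + 1), KO minus WT, for the 36 genes in order of size; red circles are from the comparison without a covariate, open squares with the adipocyte score as covariate, and bars are the SE. Of the circles, 34 of 36 lie below 0, of the squares 23.

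Among the other marker lists, brown and beige fat differed by -0.10, skeletal muscle by -1.69, B cells by 1.06 and T cells by 0.95. Macrophages differed by -0.36, hepatocytes by 0.46, pancreas by -0.26 and endothelium by 0.02. The adjusted exact permutation p of these lists was 0.52 to 0.94, and that of the adipocyte list was 0.52 as well. RNA encoded in the mitochondrial genome made up 11.8% ± 2.96 of KO libraries and 8.85% ± 3.39 of WT libraries (SD over 7 a group; exact permutation p = 0.10). The median log2 difference of the 36 genes was -0.26 with the skeletal muscle score as a covariate and -0.26 after rescaling without mitochondrially encoded genes. The lists other than adipocytes, B cells and muscle were not used as covariates, so their part in the differences of the 36 genes was not tested.

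Ratios of genes were also taken within each library. The ratio of Ehhadh to Acadm, 2 genes chosen after their values were seen and so given with no test, was 0.0833, 0.0908 and 0.12 in KO libraries (lowest, median, highest) and 0.118, 0.152 and 0.191 in WT libraries. KO replicate 5 was the single KO library above the lowest WT library, WT replicate 4. The ratio of Slc25a20 to Acadm was 0.113 to 0.209 in KO libraries and 0.178 to 0.309 in WT libraries. It too has no test, because it sets the gene of smallest p over a gene that differed little. A lower KO ratio thus follows from values already given. The ratio of Hadhb to Hadha, the partners from the shared start region, was 1.67 to 2.48 in KO libraries and 1.64 to 2.004 in WT libraries.

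**Figure D5:**
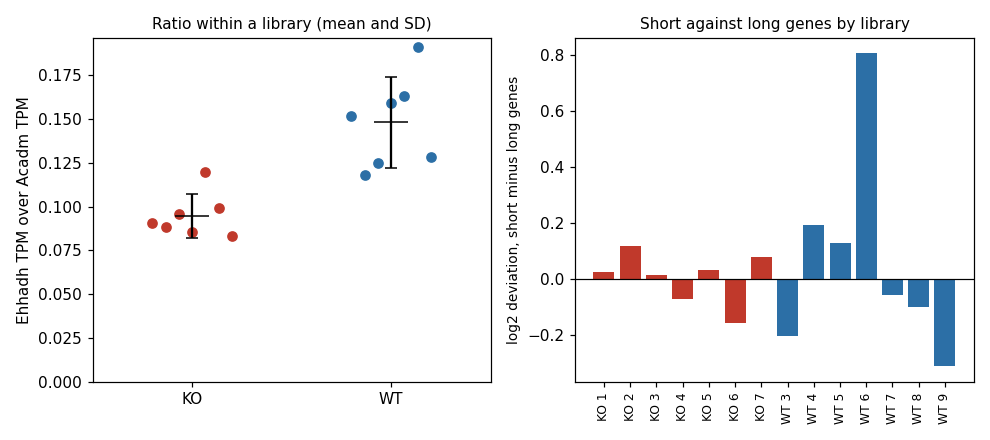
Left, the ratio of Ehhadh TPM to Acadm TPM in each library, KO left of WT, with mean and SD over 7 libraries. Right, the median log2 deviation of short genes minus that of long genes in each library, where WT replicate 6 stands at 0.81 and the other 13 libraries between -0.31 and 0.19.

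WT replicate 6 stood apart by gene length. Each library was set against the median of the other libraries of its group, over 1989 genes under 1500 bases and 1564 genes of 4000 bases or more (mean level of 10 TPM or more, averaged on the log scale). In WT replicate 6 the median log2 deviation was 0.05 for the short genes and -0.75 for the long ones, a gap of 0.81, against gaps of -0.31 to 0.19 in the other 13 libraries. It was the lowest library for 6 of the 36 genes, namely Cpt1a, Cpt1b, Slc22a5, Acot2, Acox3 and Decr2, and the highest for 3, namely Etfb, Acaa2 and Acaa1a. Among these genes only Cpt1a (4317 bases) was in the long class and only Etfb (893 bases) in the short class. The long genes Abcd2 and Hadha were lowest in KO replicate 4. Without WT replicate 6 the median log2 difference of the 36 genes was -0.37, that of Cpt1a -0.34, that of Cpt1b -0.31 and that of Decr2 -0.41.

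One alternative changed the calls. When limma was fitted with array weights, which count libraries near their group more, 5 of the 36 genes were called lower in KO, where 5.59% of all genes were called. They were Ehhadh (log2 difference -0.78, adjusted p = 0.018), Acad11 (-0.91, adjusted p = 0.021), Slc25a20 (-0.48, adjusted p = 0.026), Oxct1 (-0.50, adjusted p = 0.028) and Eci2 (-0.52, adjusted p = 0.034). The adjusted p over all alternatives ran up to 0.56 for Ehhadh and Acad11, 0.50 for Slc25a20 and 0.68 for Oxct1 and Eci2 (limma). The weights were lowest in WT replicate 6 (0.26), WT replicate 4 (0.29) and KO replicate 7 (0.31), and highest in WT replicate 8 (3.80).

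Of 65 further genes of these pathways that are not among the 36, 63 were tested. In the fit without weights or covariates 0 were called, where 0.0204% of all genes tested were. Fgf21 and Acox2 did not pass the filter on low values. Values were lower in KO for 53 and higher for 10, where 45.4% of all genes tested were lower. The median log2 difference of the 63 was -0.23. These lists too were chosen with earlier results of these data known. At an unadjusted p under 0.05, 9 were lower and 2 higher, against 6.74% of all genes lower and 4.67% higher. By list, 9 of 12 regulators, 13 of 14 mitochondrial and ketone genes, 17 of 22 peroxisomal genes and 14 of 15 peroxins had lower values.

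Among regulators, the nuclear receptor Ppara and its coactivator Ppargc1a were low in both groups. Ppara averaged 2.75 ± 1.49 TPM in KO and 3.21 ± 1.31 TPM in WT, and Ppargc1a 1.22 ± 0.46 TPM in KO and 1.13 ± 0.26 TPM in WT (SD, n = 7 each). The related coactivator Ppargc1b averaged 1.94 ± 0.52 TPM in KO and 1.26 ± 0.43 TPM in WT (SD, n = 7 each), a log2 difference of 0.39 ± 0.16 (SE; limma adjusted p = 0.41). Pdk4, a kinase that shuts pyruvate out of oxidation, averaged 8.26 ± 3.41 TPM in KO and 14.9 ± 6.47 TPM in WT (SD, n = 7 each), a log2 difference of -0.76 ± 0.28 (SE; limma adjusted p = 0.34). Mlycd, which degrades the Cpt1 inhibitor malonyl-CoA, had a log2 difference of -0.36 ± 0.15 (SE).

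In the mitochondrial list, Hsd17b10, a dehydrogenase of short branched chains, had a log2 difference of -0.52 ± 0.20 and Mcat, of mitochondrial fatty acid synthesis, one of -0.33 ± 0.14 (SE). In the peroxisomal list, Hacl1, a lyase of alpha-oxidation, averaged 14.3 ± 4.66 TPM in KO and 21.4 ± 4.03 TPM in WT (SD, n = 7 each). Its limma adjusted p was 0.32. When limma was fitted with array weights, Hacl1 was called lower in KO (log2 difference -0.72, adjusted p = 0.027). Ephx2, an epoxide hydrolase, and Pxmp2, a channel of the peroxisomal membrane, had log2 differences of -0.74 ± 0.28 and -0.76 ± 0.32 (SE). Over the alternatives the log2 differences ran up to -0.32 for Hacl1, -0.34 for Ephx2 and -0.30 for Pxmp2. Far1, which makes fatty alcohols for ether lipids, was higher in value, at 17.1 ± 5.25 TPM in KO and 11.3 ± 5.11 TPM in WT (SD, n = 7 each; limma adjusted p = 0.42). Pex6, of the peroxisomal protein import machinery, had a log2 difference of -0.35 ± 0.14 (SE).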

How the data were processed

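RNA-seq libraries of adipose tissue from 7 KO and 7 WT mice were made, per the labels' protocols, from Trizol RNA with an Illumina TruSeq kit. The authors deposited a table of 56552 rows with TPM values for each library. The submitters' processing notes name Bowtie 0.12.2, mm8 and mm9 without saying what each was for. The quantifier, annotation, strand handling and treatment of shared reads were not given in the sources used here. TPM is a share of a fixed total, and depth is unknown. Rows of a symbol were summed to 54955 names. Genes at 1 TPM or more in 7 or more libraries (14719) were tested as log2(TPM + 1) by limma-trend with a robust prior (limma 3.58.1, R 4.3.3; 2-sided, Benjamini-Hochberg over all genes, threshold 0.05). Marker scores were compared by exact permutation over libraries. The p-values set a difference between the groups against the spread between these libraries. The script was tested on simulated data with shifts larger than any difference of the 36 genes. That test therefore does not show how often differences of their size would be called.

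Members and lists were chosen with earlier results of these data known. All 36 genes could be named; the lowest, median and highest TPM are given for the gene of smallest p in each role, the 8 of smallest p among all 36, and Cpt1a, Cpt1b, Ehhadh and Acaa1a. Bdh1 and Acox3, the genes of opposite sign, were added to these after their values were seen. Other pathway genes were named at an unadjusted p under 0.05, up to 4 a list, besides Ppara and Ppargc1a, and some genes under this rule are not reported here. Markers of mesothelium were listed, but none of them passed the filter. Promoter windows are from RefSeq on GRCm38.p6. Alternatives covered pseudocounts, filters, scalings, array weights, covariates, libraries left out and a replicate block. Count models were not run, because the files hold TPM.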

Additional observations from a re-analysis of the deposited data

Results flagged for a closer look

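Among 120 sets of 7 libraries of a group (genes and marker scores), 4 had a library set apart from its nearest neighbour by a gap that took most of the group's range (Dixon's test at the 95% level); chance alone gives about 1 in 20. Acad11 stood at 76.9 TPM in WT replicate 7, where the WT median was 37.3 TPM. In KO replicate 7 the B-cell score was 1.29 (KO median 6.56) and the T-cell score 1.62 (KO median 5.79). The hepatocyte score was 8.70 in WT replicate 8, where the WT median was 3.34. Without WT replicate 7 the Acad11 log2 difference was -0.70, KO minus WT.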

How the results depend on the processing

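The count of the 36 genes called was 0 in 31 of 32 alternatives and 5 with array weights, and their median log2 difference kept its sign in all 32, at -0.43 to -0.04. Over 1151 values of single genes among the 36, 1096 kept direction and side of the threshold, 50 changed sign and 5 passed the threshold; 21 genes never changed sign. The number of all genes called was 3, and 1 without the filter or with rows as deposited, 19 with quantile normalization, 9 with median-ratio scaling, 6 rescaled without mitochondrially encoded genes, 823 with array weights, 19 with the adipocyte score as covariate, 0 with the muscle score as covariate or when the 3 libraries poor in B-cell transcripts were left out, and 0 to 6 with 1 library left out (6 without KO replicate 7, 1 without KO replicate 2, and 0 without any 1 of WT replicates 3, 4, 5, 7, 8 and 9 or of KO replicates 1, 5 and 6). Of those, 13 were higher in KO with quantile normalization, 3 with median-ratio scaling, 2 rescaled, 248 with array weights and 6 with the adipocyte score. The genes or scores that changed sign were these, as log2 differences. Quantile normalization gave Acadm 0.10, Hadhb 0.11, Acat1 0.042, Ppargc1a -0.071 and the endothelium score -0.0051; median-ratio scaling gave the endothelium score -0.017; rescaling gave Acadm 0.0082 and Acot2 0.0031. Array weights gave Cpt1b 0.075 and Bdh1 -0.25. Without the 3 libraries, Cpt1b was 0.33, Acot2 0.089, Bdh1 -0.0049 and the muscle score 0.12. Without the filter the brown and beige score was 0.044. The adipocyte score as covariate gave Cpt1b 0.054, Acadvl 0.083, Acadm 0.30, Hadha 0.037, Hadhb 0.24, Acot2 0.18, Etfa 0.016, Etfdh 0.12, Acat1 0.20, Bdh1 -0.48, Hsd17b4 0.081, Phyh 0.12, Pex11a 0.24 and Ppara 0.031. The B-cell score gave Cpt1b 0.051, Acadm 0.12, Hadhb 0.064, Acot2 0.077, Acat1 0.023 and Bdh1 -0.14, and the muscle score Cpt1b 0.15, Acadm 0.0062 and Acot2 0.021. With 1 library left out, Acadm ran from -0.18 to 0.086, Hadhb from -0.15 to 0.073, Acot2 from -0.20 to 0.047, Acat1 from -0.25 to 0.012, Cpt1b from -0.31 to 0.12, Ppargc1a from -0.010 to 0.11, and the scores of endothelium from -0.14 to 0.15, of brown and beige fat from -0.21 to 0.033 and of hepatocytes from -0.10 to 1.29. The cause of these shifts was not tested, apart from the libraries or genes each alternative leaves out.

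Replicate numbers 3 to 7 occur in both groups. Their deviations from the group means correlated at 0.11, -0.67, 0.60, -0.18 and 0.80, so the numbers were not taken as pairs; with the replicate block, on those 10 libraries, 0 genes were called and the median of the 36 was -0.38, as without the block term. Cpt1a was then 0.14 and Slc22a5 0.027 in both fits. TPM hides depth, so low genes such as Cpt1b and Ppargc1a carry a counting error that cannot be given.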
